A study of Mus musculus with 13 samples.

Results

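The response of the mouse midbrain to MPTP was examined in animals whose astrocytes kept Ripk3, by comparing 3 mice given MPTP with 3 mice given saline. The 6 libraries were chosen by genotype and treatment, and they are 6 of the 13 in the series. All 6 mice were males carrying a floxed allele of Ripk3 on both chromosomes and no Cre transgene (Ripk3fl/fl Aldh1l1Cre-, called Cre- here), so the allele was present but could not be deleted. Every animal of the series, controls included, received tamoxifen at 60 mg/kg for 5 days. The Cre- MPTP group then received MPTP at 20 mg/kg once a day for 5 days, the Cre- Saline group received saline, and midbrain was collected 3 days after the final dose. The mice were 8 to 12 weeks old and were perfused before collection, and each library came from a different animal. The other 7 libraries were from littermates whose tamoxifen-inducible Cre, driven by the astrocyte promoter Aldh1l1, deletes Ripk3 in astrocytes (Cre+ Saline, n = 3; Cre+ MPTP, n = 4). They were used for the estimate of the spread between animals and for the test of genotype given last.

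MPTP is a lipophilic protoxin. Monoamine oxidase B, an enzyme held mainly by astrocytes, oxidizes it to MPP+, which dopaminergic neurons take up through the dopamine transporter and which blocks mitochondrial complex I. The neurons of the substantia nigra that die in Parkinson's disease are the most sensitive to it, and surrounding astrocytes and microglia react to the injury. RIPK3 is a kinase of the necroptosis pathway that can also drive inflammatory transcription, which is why the study deleted it in astrocytes. In a whole-tissue library, fewer cells of a type and less RNA per cell cannot be told apart, and this holds for every gene below.

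Read counts assigned to genes were 24907639, 25324907 and 27098499 in Saline mice 1 to 3, and 11489150, 24655963 and 29397278 in MPTP mice 1 to 3. MPTP mouse 1 stood apart from every other library in more than depth. Its log2 levels correlated with those of MPTP mice 2 and 3 at r = 0.90 and 0.906 across genes, whereas mice 2 and 3 correlated at 0.987 and the Saline pairs at 0.981 to 0.990. Mitochondrial transcripts took 1.12% of its counts against 3.55% to 4.81% in the other 5 libraries, and 21101 genes had a count in it against 26190 to 26872. Its levels also moved with base composition: the median log2 difference from the Saline mean ran from -1.06 in the tenth of genes with the lowest GC content (median 39.2% GC) to 1.44 in the tenth with the highest (59.9% GC). The same span was 0.19 to -0.25 in MPTP mouse 2 and 0.07 to -0.19 in MPTP mouse 3. Results are therefore given with and without MPTP mouse 1, and the part of depth or GC content in them was not tested beyond these fits.

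**Figure D1:**
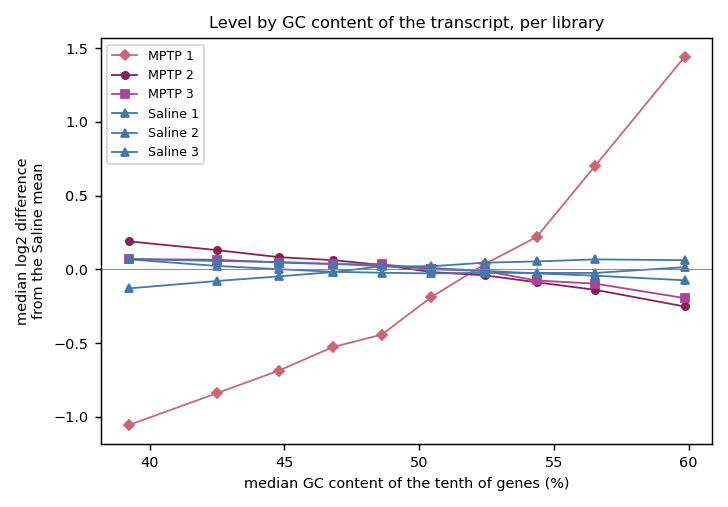
Median log2 difference of each Cre- library from the mean of the 3 Saline libraries (vertical axis), in 10 bins of equal gene number ordered by the GC content of the longest transcript (horizontal axis, median GC in percent). MPTP mouse 1 (diamonds) rises from -1.06 to 1.44, and the other 5 libraries stay between -0.25 and 0.19.

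The dissected tissue carried the markers of midbrain. Th, the rate-limiting enzyme of dopamine synthesis, was at 40.5, 36.0 and 53.6 CPM (counts scaled to library size with TMM factors) in the Saline mice and 48.0, 39.7 and 51.4 CPM in the MPTP mice. The ranges overlapped. Slc6a3, the dopamine transporter, was at 44.6, 48.3 and 77.4 CPM with saline and 10.8, 49.6 and 55.5 CPM with MPTP, and the low value was that of MPTP mouse 1. None of 24 tested genes of dopaminergic identity was called in either direction at an adjusted p under 0.05. Their median log2 fold change was 0.02 against 0.03 over all 19360 genes tested. Over all genes 3.18% were called, and without MPTP mouse 1 5.14% were called higher and 4.25% lower. At these shares, lists as short as those of this paragraph would hold few calls, so an absence of calls says little about them. Without MPTP mouse 1, only Ddc, which makes dopamine from L-DOPA, was called (85.2, 96.5 and 89.8 CPM with saline, 124 and 149 CPM in MPTP mice 2 and 3, log2 fold change 0.60, adjusted p = 0.00129). Among 15 genes that activate, carry or clear MPTP and monoamines, none was called, and only the oxidase Cyp2d22 was called without mouse 1 (log2 fold change 0.34, adjusted p = 0.0239). Maob itself was at 42.7, 38.9 and 41.4 CPM with saline and 16.9, 38.5 and 35.6 CPM with MPTP. Of 43 tested complex I subunits none was called with mouse 1, and Ndufa3 and Ndufa13 were called lower without it (log2 fold changes -0.41 and -0.50, adjusted p = 0.0423 and 0.0361). None of 22 markers of other neurons was called, and 3 were called lower without mouse 1 (Rbfox3, Tubb3 and Fev, log2 fold changes -0.41, -0.43 and -1.05).

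Across all genes, 431 were called higher and 185 lower with MPTP, which is 3.18% of those tested in either direction, 2.23% higher and 0.956% lower. The median absolute log2 fold change of these 616 was 1.81. CPM did not overlap between the 3 Saline and the 3 MPTP mice for 2930 of all 19360 genes tested, and the absence of overlap in a called gene is close to fixed by its call. Without MPTP mouse 1, 992 of 19311 genes were called higher (5.14%) and 820 lower (4.25%), of which 427 and 184 were also called with it. Only 4 higher and 1 lower gene were called with it and not without it. The 4 did not pass the filter on low counts without it and were not tested there. Without Saline mouse 1, 2 or 3 the counts were 224 higher and 141 lower, 213 and 98, and 272 and 99. In all, 280 genes (193 higher, 87 lower) were called with all libraries and in each of the 6 fits that left out 1 of them. All these fits took part of their estimate of the spread from the Cre+ libraries. On the 6 Cre- libraries alone, edgeR called 105 higher and 5 lower, so most of the 280 do not hold there. A gene named below as higher or lower belongs to these 280 unless a library is named beside it. The count of calls in each list below is to be read against these shares over all genes, which also rose without MPTP mouse 1. Log2 fold changes are given with their standard errors (SE).

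**Figure D2:**
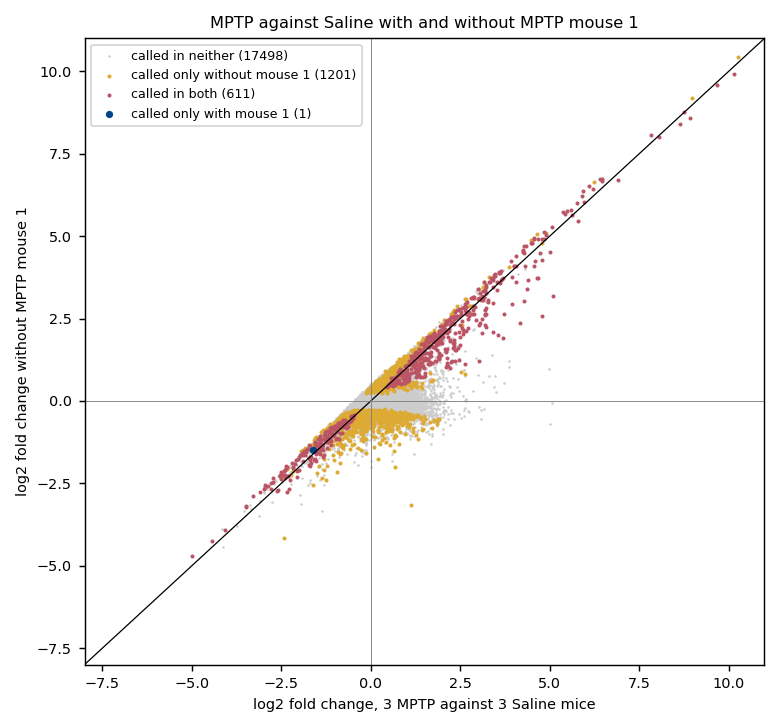
Log2 fold change of MPTP against Saline for each gene with all 6 Cre- libraries (horizontal axis) and without MPTP mouse 1 (vertical axis), with the line of equality. The 611 genes called in both fits lie on the same side of 0 in both, and 1201 genes were called only without mouse 1.

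The genes with the smallest p among those that rose are known from several cell types, and the cells behind the rise were not measured. C4b, the complement component C4, rose from 39.5, 37.7 and 47.7 CPM to 294, 220 and 325 CPM (log2 fold change 2.75, SE 0.206, adjusted p = 0.000104). Fcgr2b, the inhibitory Fc receptor of macrophages, rose from 2.62, 3.12 and 2.92 CPM to 15.9, 25.4 and 30.5 CPM (3.05, SE 0.253, adjusted p = 0.000217). Gpr84, a receptor for medium-chain fatty acids on activated myeloid cells, rose from 0.794, 0.898 and 0.803 CPM to 16.1, 10.7 and 11.7 CPM (3.94, SE 0.341, adjusted p = 0.000217). In each of these the lowest MPTP mouse was at least several-fold above the highest Saline mouse. They were picked among called genes whose groups did not overlap. Il4ra, the receptor for interleukin-4 and interleukin-13, rose with a log2 fold change of 1.93, Hcls1, a cytoskeletal adaptor of blood cells, with 1.91, and Lgals3bp, a secreted galectin-binding glycoprotein, with 1.96. Gpr179 rose with 2.21, from 6.11, 7.54 and 9.42 CPM to 31.6, 44.6 and 30.8 CPM. The rest of the 12 were Hif3a, Icam1, Fkbp5, Zbp1 and Irf7, which are described with their groups.

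Among the genes that fell, P2ry12 had the smallest p, and several others are known from oligodendrocytes and vessels. Gpr37, an orphan receptor of oligodendrocytes and neurons, fell from 151, 191 and 184 CPM to 73.9, 79.0 and 69.3 CPM (log2 fold change -1.24). Cmtm5, a membrane protein of myelinating cells, fell from 67.4, 66.5 and 76.0 CPM to 19.5, 27.6 and 27.3 CPM (-1.49). Gatm, the first enzyme of creatine synthesis, fell from 239, 252 and 216 CPM to 93.0, 118 and 118 CPM (-1.10). Padi2, a peptidylarginine deiminase of oligodendrocytes, fell by 1.43 on the log2 scale, the fibroblast growth factor receptor Fgfr2 by 1.02, Aif1l by 1.56, the transporter Abcc6 by 2.31 and the unnamed transcript B230206H07Rik by 2.40.

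Promoters of 4 genes that rose are shown as examples that hold the letters of factors known to act in inflammation, because the groups below are usually described by those factors. They were picked for holding a match. NF-kappaB is activated by cytokine and pattern receptors, C/EBP factors and STAT3 drive acute-phase genes, and the interferon-stimulated response element (ISRE) is found in the promoters of many interferon-induced genes. The 250 bases before the RefSeq start are printed 5' to 3' on the gene's strand (GRCm38.p6), with capitals for the matched letters on either strand. Cxcl1 (chr5:90890995-90891244, plus strand) holds 3 NF-kappaB matches (GGGANNNNCC), of which 2 overlap:
Cxcl1: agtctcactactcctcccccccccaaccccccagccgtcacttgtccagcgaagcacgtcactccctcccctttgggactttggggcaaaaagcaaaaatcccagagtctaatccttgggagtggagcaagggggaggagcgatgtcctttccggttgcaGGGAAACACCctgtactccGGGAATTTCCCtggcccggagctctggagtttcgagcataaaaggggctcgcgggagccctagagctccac
Saa3 (chr7:46715677-46715926, minus strand) holds a C/EBP match (TTGCNNAA):
Saa3: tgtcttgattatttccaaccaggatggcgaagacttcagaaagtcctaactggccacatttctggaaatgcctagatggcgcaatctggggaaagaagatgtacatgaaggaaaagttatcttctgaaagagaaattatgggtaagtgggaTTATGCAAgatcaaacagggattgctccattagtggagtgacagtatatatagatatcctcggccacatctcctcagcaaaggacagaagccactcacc
Ifit1 (chr19:34640639-34640888, plus strand) holds 2 ISRE matches (GAAA, 2 bases, GAAA):
Ifit1: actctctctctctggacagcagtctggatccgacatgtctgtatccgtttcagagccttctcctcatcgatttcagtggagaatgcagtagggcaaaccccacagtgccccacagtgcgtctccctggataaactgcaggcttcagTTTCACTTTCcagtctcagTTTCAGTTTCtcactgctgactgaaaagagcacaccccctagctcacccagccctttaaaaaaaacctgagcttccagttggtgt
Icam1 (chr9:21015690-21015939, plus strand) holds a STAT match (TTCNNNGAA):
Icam1: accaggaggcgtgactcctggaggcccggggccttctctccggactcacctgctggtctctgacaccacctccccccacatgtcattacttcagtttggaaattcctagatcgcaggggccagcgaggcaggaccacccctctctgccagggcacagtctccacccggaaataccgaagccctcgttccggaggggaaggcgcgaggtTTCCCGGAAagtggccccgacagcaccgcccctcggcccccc
The letters GGGANNNNCC were also looked for in the windows of Saa3 and Icam1, and neither held an exact match. Such strict letters miss sites that vary from them. The Icam1 window holds tggaaattcc, which differs from them in its first letter only, so the absence of a match does not show the absence of a site. Some other genes that moved did not hold the letters looked for. Oasl2 and Irf7, both interferon-induced, held no ISRE match, Osmr and Gfap held no STAT match, and Edn3, which fell, held none of any kind. P2ry12, which fell, held matches of NF-kappaB and C/EBP. Of all 32851 promoters in the RefSeq table, 17.6% hold the NF-kappaB letters, 9.56% those of C/EBP, 2.98% those of the ISRE and 7.02% those of STAT. The table has a promoter for 13187 of the 19360 genes tested, which is 68.1% and too few to compare groups of genes with the rest. Of these 13187, 25.9% hold the NF-kappaB letters, 9.1% those of C/EBP, 3.21% those of the ISRE and 7.12% those of STAT. As plain counts, 19 of 31 interferon-induced genes in the table hold the ISRE letters, 7 of 12 acute-phase genes those of C/EBP, and 7 of 21 chemokine and receptor genes those of NF-kappaB. No letters of a glucocorticoid receptor site (GNACA, 3 bases, TGTNC, held by 0.387% of all promoters) are in the window of Fkbp5, although 3 of 21 genes of the glucocorticoid list hold them.

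Acute-phase proteins and reactive astrocyte genes had the 2 highest list medians of the 40. Of 27 acute-phase genes listed, 16 were tested. A gene nearly absent with saline was tested only through its counts in MPTP libraries and could hardly be called lower. This holds for the other lists too. Of the 16, 11 were called higher and none lower, with a median log2 fold change of 4.48. The median was 4.10 with genes absent or nearly absent from Saline set at their lower bound. Without MPTP mouse 1, 13 were called and the median was 3.47. Lcn2, the iron-sequestering lipocalin-2 secreted by reactive astrocytes and by neutrophils, was at 0.159, 0.898 and 0.986 CPM with saline and 630.1, 460.4 and 595 CPM with MPTP (log2 fold change 9.67, SE 1.09, adjusted p = 0.00085). Saa3, an acute-phase serum amyloid A whose promoter is printed above, was at 0, 0.273 and 0.329 CPM with saline and 317, 189.9 and 213 CPM with MPTP (10.16, SE 1.74, adjusted p = 0.00597). Both went from a few reads to a high level in every treated mouse. Serpina3n, a serine protease inhibitor typical of reactive astrocytes, rose from 18.1, 19.6 and 16.2 CPM to 291, 492 and 584 CPM (4.66, SE 0.655), the ferroxidase Cp rose with 2.87 and the lipopolysaccharide-binding protein Lbp with 2.36. Hp (haptoglobin, 4.40) and Lrg1 (5.09) were called higher but lost the call without Saline mouse 1 (adjusted p = 0.0519 and 0.0527). Without Saline mouse 1, 2 or 3, the count of acute-phase genes called was 5, 7 and 7.

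Of 13 tested genes that reactive astrocytes share whatever the injury, 10 were higher and none lower (median 3.20; 11 higher and 2.94 without MPTP mouse 1), and 9 of the 10 held in each fit with 1 library left out. Gfap, the intermediate filament by which reactive astrocytes are recognized, was at 292, 363 and 342 CPM with saline and 3171, 1242 and 1623 CPM with MPTP (log2 fold change 2.60, SE 0.354, adjusted p = 0.00202; 2.11 without MPTP mouse 1, the highest of the 3). Steap4, a metalloreductase, rose with 5.44, Timp1, an inhibitor of matrix metalloproteinases, with 4.84, Osmr, the oncostatin M receptor, with 2.63, and Aspg with 3.20. Hspb1, a small heat shock protein, was at 10.4, 8.24 and 8.03 CPM with saline and 388, 57.5 and 34.5 CPM with MPTP, and its call was lost with any 1 Saline mouse left out (adjusted p up to 0.0730). Both panels often used to name astrocyte states held higher genes and no lower one. The A1 panel had 9 of 11 higher (median 1.68), among them Gbp2 (3.18), Srgn (1.44) and Fkbp5, but 5, 3 and 6 without Saline mouse 1, 2 and 3 and all 11 without MPTP mouse 1. The A2 panel had 6 of 12 higher (median 1.37), among them the prostaglandin synthase Ptgs2 (2.38, 2.69 and 1.57 CPM to 12.7, 61.3 and 53.8 CPM, 4.27), the transglutaminase Tgm1 (3.11), Cd109 (1.88) and the lipopolysaccharide co-receptor Cd14 (2.86), and 4 of 12 with any 1 Saline mouse left out.

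Markers of resting astrocytes behaved differently from these. Of 20 tested, only Aldh1l1, a folate enzyme present in astrocytes at large, was called (83.0, 78.0 and 103 CPM to 160.1, 114 and 140.0 CPM, 0.65), and that call was lost without MPTP mouse 3 or Saline mouse 1 or 2 (adjusted p up to 0.226). Without MPTP mouse 1, 4 were higher (Aldh1l1, Slc1a2, Gjb6 and Fgfr3, log2 fold changes 0.44 to 0.66) and 3 lower (S100b, Slc7a10 and Ntsr2, -0.51 to -0.83).

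**Figure D3:**
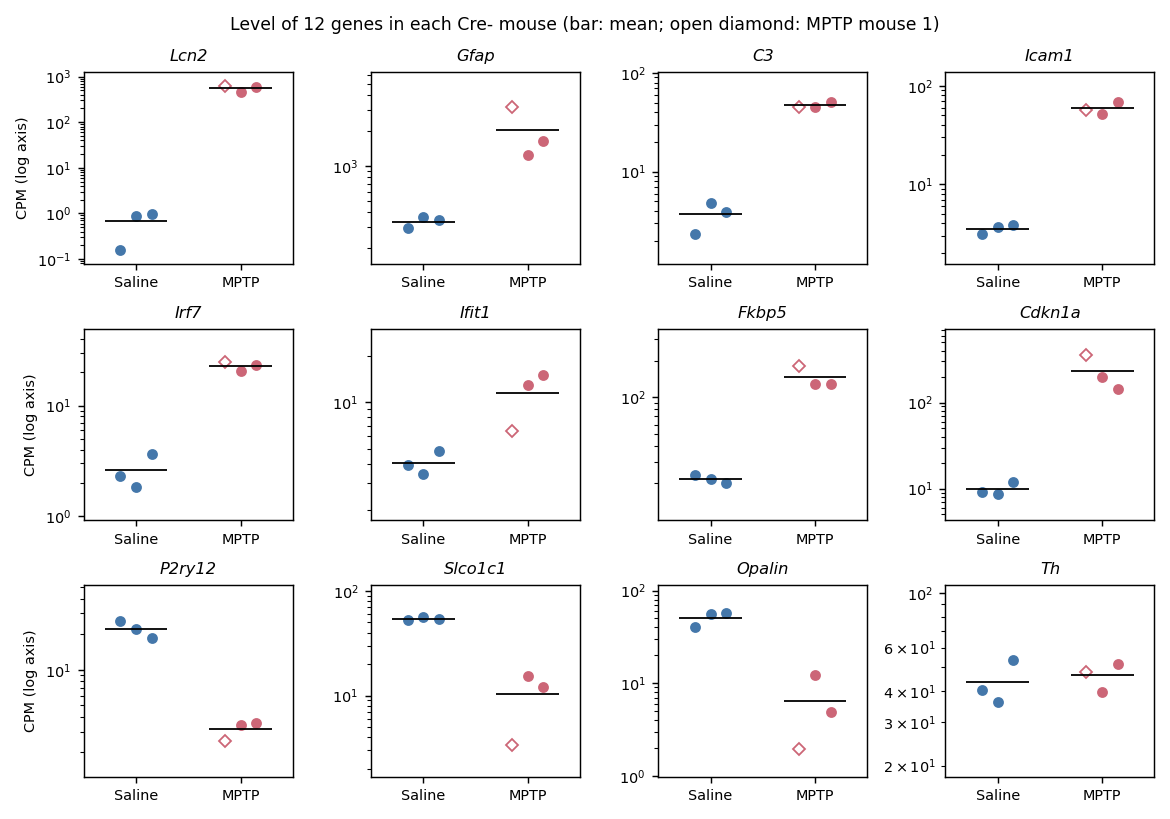
CPM (log axis, own scale in each panel) of 12 genes in the 3 Saline and 3 MPTP mice of the Cre- genotype, with bars at the group means and MPTP mouse 1 as an open diamond. Lcn2, Gfap, C3, Icam1, Irf7, Fkbp5 and Cdkn1a are higher and P2ry12, Slco1c1 and Opalin lower in all 3 MPTP mice, Ifit1 is nearest to Saline in MPTP mouse 1, and Th overlaps.

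Receptors of inflammatory cytokines were among the genes that rose. The well-known cytokines Il6 and Il1b had at most 51 counts in any Cre- library, with more in MPTP mice 2 and 3 than in any Saline mouse. Of 32 tested genes of the interleukin-6, interleukin-1, TNF and colony-stimulating factor axes, 11 were called higher and 1 lower (13 and 2 without MPTP mouse 1). Receptors that rose were Osmr, Il6ra (log2 fold change 1.30), the interleukin-1 decoy receptor Il1r2 (2.29), the TNF receptor Tnfrsf1a (13.9, 13.2 and 15.4 CPM to 102, 43.1 and 42.0 CPM, 2.13) and Csf2rb (2.52). Csf1, the growth factor of microglia, rose from 27.9, 34.2 and 37.9 CPM to 102, 61.9 and 70.7 CPM (1.23). Il6 had 1, 0 and 0 counts with saline and 1, 51 and 47 with MPTP, and Il1b had 4, 6 and 0 against 7, 37 and 49. Csf3, the neutrophil growth factor, reached 73.4, 42.9 and 39.5 CPM from 0, 0.234 and 0.0730 CPM, and Il33, an alarmin of oligodendrocytes and astrocytes, went from 109.8, 108 and 96.4 CPM to 36.8, 73.4 and 42.0 CPM. Both were called, but lost the call with any 1 Saline mouse left out (adjusted p up to 0.124 and 0.0915), and Il33 also without MPTP mouse 3. Without MPTP mouse 2 or 3, 7 genes of these axes were called higher, and without Saline mouse 1, 2 or 3, 6, 6 and 7.

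Of 30 tested NF-kappaB, STAT3 and C/EBP factors with their feedback inhibitors, 11 were higher and none lower (median 1.20; 14 higher and 0.50 without MPTP mouse 1; 5, 5 and 9 without Saline mouse 1, 2 and 3). Socs3, the feedback inhibitor of STAT3, rose from 2.62, 2.27 and 1.31 CPM to 100.25, 26.9 and 28.1 CPM (log2 fold change 4.64), and Stat3 itself rose from 48.9, 58.5 and 63.9 CPM to 138, 133 and 114 CPM (1.17). Nfkbiz (1.83), the deubiquitinase Tnfaip3 (1.92) and the ribonuclease Zc3h12a (2.56), which limit or shape NF-kappaB output, also rose. Cebpd was at 5.0, 3.75 and 6.54 CPM with saline and 364, 31.1 and 30.1 CPM with MPTP, so that its size rested on MPTP mouse 1 (4.79 with it and 2.59 without), and the call was lost with any 1 Saline mouse left out (adjusted p up to 0.0796).

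Some chemokines, selectins and Icam1 rose. Of 37 chemokines and receptors listed, 28 were tested. Of these, 11 were higher and 1 lower (14 and 1 without MPTP mouse 1). Without MPTP mouse 3, 8 were higher, and 6 with any 1 Saline mouse left out. Cxcl1, a neutrophil attractant, was at 0.0794, 0.195 and 0.0730 CPM with saline and 62.3, 34.5 and 47.2 CPM with MPTP (log2 fold change 8.64, SE 1.40, adjusted p = 0.00439). Ccl2, which attracts monocytes, was at 0.159, 0.312 and 0.0730 CPM and then 9.0, 9.66 and 8.88 CPM (5.63), Cxcl10, which attracts T cells, rose with 3.99 and Cxcl16 with 2.02. Cxcl2 had no count in any Saline mouse and 5.31, 7.05 and 6.60 CPM with MPTP, at least 54.8-fold higher against 3 counts per library, yet was called only without MPTP mouse 1 (adjusted p = 0.0592 with it and 0.0194 without). Cxcl12, which retains leukocytes at the vessel wall, was the 1 that fell, from 53.1, 64.3 and 67.6 CPM to 29.6, 24.0 and 19.8 CPM (-1.34).

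Of 14 tested genes of a list for leukocyte adhesion at endothelium, 5 were higher and 1 lower (6 and 1 without MPTP mouse 1). Of the 5, Icam1, Sele and Selp are adhesion molecules, whereas Ackr1 and Lcn2 are not. Ackr1, a chemokine receptor of venules, lost the call without Saline mouse 2 (adjusted p = 0.0532). Icam1, the ligand of leukocyte integrins, rose from 3.13, 3.67 and 3.83 CPM to 57.3, 52.3 and 68.9 CPM (log2 fold change 4.07, SE 0.411, adjusted p = 0.000628). Selp (P-selectin) rose from 0.119, 0.0781 and 0.183 CPM to 5.09, 10.8 and 17.5 CPM (6.40), and Sele (E-selectin) from 0, 0 and 0.110 CPM to 5.96, 8.56 and 14.6 CPM. These levels did not overlap between the groups, which is close to fixed by the calls. Mcam, a marker of pericytes and endothelium, fell with -1.23, and Vcam1 was called only without MPTP mouse 1 (1.17).

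Some neutrophil and monocyte genes were higher from very low levels. Of 20 neutrophil genes listed, 13 reached the counts needed for testing, and the rest enter no count here. A gene nearly absent with saline reached them only through MPTP libraries and could hardly be called lower. Of the 13, 7 were higher and none lower (median 2.29, and 7 and 1.70 without MPTP mouse 1). Without MPTP mouse 3, 4 were higher, and without Saline mouse 1, 2 and 3, 3, 3 and 4. S100a8, an abundant neutrophil protein, was at 0.0397, 0.156 and 0.219 CPM with saline and 4.44, 2.93 and 18.6 CPM with MPTP (log2 fold change 5.92), and MPTP mouse 3 was the highest. The summed level of the whole list was 22.6 to 25.1 CPM with saline and 493 to 723 CPM with MPTP, most of it Lcn2, which other cells make too. Ly6g, the defining surface marker of neutrophils, had 0, 1 and 0 counts with saline and 0, 0 and 3 with MPTP. Of 17 tested genes of border macrophages and monocytes, 6 were higher and 1 lower, with or without MPTP mouse 1 (4 higher without MPTP mouse 2 or 3, 3 without Saline mouse 1 or 2). The scavenger receptor Msr1 rose from 0.437, 0.234 and 0.365 CPM to 12.1, 17.9 and 21 CPM (5.61), and Chil3, a monocyte lectin, from 0.0397, 0.117 and 0 CPM to 3.47, 1.58 and 9.87 CPM. Mrc1, the mannose receptor of border macrophages, went from 5.28, 6.44 and 6.32 CPM to 1.63, 2.42 and 2.91 CPM (-1.34) and lost the call without MPTP mouse 2 and with any 1 Saline mouse left out (adjusted p up to 0.115).

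Of the 40 lists, that of interferon-induced genes gained the most calls when MPTP mouse 1 was left out. All 43 tested had a log2 fold change above 0, with a median of 1.48. Called higher were 20 with all libraries, 41 without MPTP mouse 1 and 33 with the trend on GC content removed from each library, and none was lower in any of the 3. The list's median log2 difference from the Saline mean was 0.88 in MPTP mouse 1, against 1.72 and 1.68 in mice 2 and 3. Irf7, the factor that amplifies type I interferon production, rose from 2.30, 1.84 and 3.65 CPM to 24.9, 20.6 and 23.1 CPM (log2 fold change 3.13, SE 0.337, adjusted p = 0.00085). Zbp1, a sensor of Z-form nucleic acids that can activate RIPK3, rose from 0.159, 0.312 and 0.511 CPM to 4.77, 6.50 and 4.82 CPM (4.01, SE 0.414, adjusted p = 0.000628). In both, the 3 MPTP mice lay close together. Their distance from the Saline mice is no added evidence, because both were picked among called genes without overlap. Effectors that rose were Ifitm1, Ifitm2 and Ifitm3, which block viral entry (2.65, 2.03 and 2.47), Oasl2 (2.41), Bst2 (3.23), Ifi44 (2.68), Isg15 (1.83), the guanylate-binding proteins Gbp2, Gbp3 and Gbp6 (3.18, 1.52 and 2.52), and the immunity-related GTPases Igtp and Irgm1 (1.73 and 1.54). Irf9, a subunit of the factor that reads the ISRE, rose with 1.25. Ifit1, whose promoter is printed above, was at 3.89, 3.44 and 4.82 CPM with saline and 6.50, 12.8 and 15.0 CPM with MPTP, and was called only without mouse 1 (1.78, adjusted p = 0.0059; 0.0674 with it), as were Ifit3 (1.66), Usp18 (1.62), Rsad2 (1.64), Mx2 (1.63) and Trim30a (2.06). Without Saline mouse 1, 2 or 3 the count was 15, 15 and 18.

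Antigen presentation showed the opposite lean, with MPTP mouse 1 the highest. The median GC content of these genes was 54.4%, against 47.5% for the interferon-induced genes, and levels in MPTP mouse 1 rose with GC content. The part of GC content in the 2 leans was not tested. Of 25 tested MHC class I and II genes, 10 were higher and none lower (median 0.83; 12 higher, 1 lower and 0.45 without MPTP mouse 1; 6, 4 and 6 higher without Saline mouse 1, 2 and 3). With the trend on GC content removed from each library, 13 were higher and none lower, with a median of 0.85. The list's median difference from the Saline mean was 1.71 in MPTP mouse 1, 0.28 in mouse 2 and 0.68 in mouse 3. H2-K1, a classical class I heavy chain, was at 46.3, 40.3 and 51.3 CPM with saline and 467, 104 and 175 CPM with MPTP (log2 fold change 2.43; 1.61 without mouse 1). H2-Q4 rose with 3.94 (2.94 without mouse 1), the peptide transporter Tap1 with 2.10 (1.51) and Nlrc5, the transactivator of class I genes, with 2.88 (3.14). Of the 10, 4 were called in each fit with 1 library left out.

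Of 23 tested complement genes, 7 were higher and none lower (10 and 1 without MPTP mouse 1). They were C4b, Serping1, C1ra, C3, Cfb, C3ar1 and C5ar1. C3, the central component, rose from 2.34, 4.80 and 3.94 CPM to 45.0, 44.9 and 51.1 CPM (log2 fold change 3.67, SE 0.567, adjusted p = 0.00338). C1ra, a protease of the classical pathway, rose with 4.05, factor B (Cfb) with 2.38, and the anaphylatoxin receptors C3ar1 and C5ar1 with 2.16 and 3.32. Serping1, the C1 inhibitor, rose with 1.49 and lost the call without Saline mouse 1 or 2 (adjusted p up to 0.0589).

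Microglial genes split, and most homeostatic ones were not called. Of 24 tested homeostatic genes, 6 were lower and 2 higher (9 and 4 without MPTP mouse 1). P2ry12, the ADP receptor by which resting microglia sense injury, fell from 26.0, 22.1 and 18.5 CPM to 2.49, 3.41 and 3.57 CPM (log2 fold change -2.79, SE 0.199, adjusted p = 0.000104). The related receptors P2ry13 and Gpr34 fell by 1.75 and 3.29 on the log2 scale, the lectin Siglech by 2.74 and Fcrls by 2.55. Tmem119 and Cx3cr1, other markers of the same cells, did not move with them: Tmem119 was at 20.6, 16.9 and 18.4 CPM with saline and 33.5, 10.6 and 20.6 CPM with MPTP, and Cx3cr1 was at 30.6, 30.1 and 29.6 CPM and 11.7, 24.6 and 41.9 CPM. Both overlapped and were called in neither fit. The integrin Itgam rose with 1.36 and the factor Spi1 with 3.03, and both lost the call without Saline mouse 2 or 3 (adjusted p up to 0.0655 and 0.200), Spi1 also without Saline mouse 1. Of 23 tested genes of disease-associated microglia, 2 were higher (Csf1 and Cd52, the latter lost without MPTP mouse 3 and with any 1 Saline mouse left out, adjusted p up to 0.176) and 1 lower (5 and 2 without MPTP mouse 1, 5 and 1 without MPTP mouse 2, and 1 higher with any 1 Saline mouse left out). The lower gene was Trem2, the lipid receptor needed for that state, which fell from 13.9, 9.06 and 9.97 CPM to 2.60, 2.53 and 5.58 CPM (-1.59). With all libraries, 13% of this list was called, against 3.18% of all genes tested. Apoe went from 2943, 2510.3 and 2659 CPM to 11528, 1908 and 2080.1 CPM, so MPTP mouse 1 lay far above all other libraries and mice 2 and 3 below the Saline mice (lower without mouse 1, -0.44, adjusted p = 0.0079).

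Endothelial and vasoactive genes went both ways, and most were not called. Of 32 tested genes of brain endothelium and its barrier, 5 were lower and 2 higher (9 and 4 without MPTP mouse 1; 3 lower and 1 higher without Saline mouse 1 or 2). Slco1c1, the thyroxine carrier of the blood-brain barrier, fell from 52.2, 56.6 and 53.7 CPM to 3.36, 15.4 and 12 CPM (log2 fold change -2.37, SE 0.372). Itm2a fell from 76.4, 74.5 and 62.5 CPM to 6.39, 18.3 and 14.3 CPM (-2.43), and Tek, the angiopoietin receptor, fell by 1.81 on the log2 scale. MPTP mouse 1 was the lowest in each, and mice 2 and 3 alone gave -1.98, -2.12 and -1.54. Ly6a rose with 1.63, and Pecam1, found on all endothelium, was at 26.4, 26.2 and 32.4 CPM with saline and 14.0, 34.1 and 44.6 CPM with MPTP, with overlap. Of 27 arterial and vasoactive genes, 5 were lower and 2 higher (6 and 4 without MPTP mouse 1; 4 higher without MPTP mouse 2, 3 lower without Saline mouse 2). Edn3, the peptide endothelin-3, fell from 5.83, 5.66 and 8.11 CPM to 1.30, 1.07 and 0.891 CPM (-2.62, SE 0.238, adjusted p = 0.000315), and Apln (apelin) fell from 52.3, 56.4 and 57.5 CPM to 18.3, 26.9 and 18.4 CPM (-1.38). The arterial gene Gkn3 fell with -4.99, while Ptges, which makes prostaglandin E2 after Ptgs2, rose from 4.96, 5.94 and 6.24 CPM to 23.7, 18.3 and 19.7 CPM (1.84). Of 16 genes of pericytes and smooth muscle, 1 was lower with or without MPTP mouse 1, namely Vtn (-1.03), which lost the call without Saline mouse 3 (adjusted p = 0.0604). That is 6.25% of the list, against 3.18% of all genes tested with all libraries. Without MPTP mouse 1, 5.14% of all genes were higher and 4.25% lower.

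Myelin and oligodendrocyte genes were lower or not called with all libraries. Of 18 tested, 6 were lower with all libraries, 11 without MPTP mouse 1 and 12 with the GC trend removed, with medians of -0.72, -0.73 and -0.79 (4 lower without MPTP mouse 3 or Saline mouse 2 or 3; 1 was higher without MPTP mouse 2 or 3). Opalin, a myelin membrane glycoprotein, fell from 40.1, 55.4 and 57.2 CPM to 1.95, 12.4 and 4.89 CPM (log2 fold change -2.95, SE 0.48), and Ugt8a, which makes galactosylceramide, fell with -1.85. Cnp, a myelin enzyme, fell from 625, 858 and 985 CPM to 414, 463 and 405 CPM (-0.94), and the gap junction protein Gjb1 fell with -1.19. The major structural gene Mbp was at 6409.5, 8046 and 8346 CPM with saline and 6111, 5846 and 4953 CPM with MPTP, and was called only without mouse 1 (-0.49, adjusted p = 0.0376). Of 15 genes of oligodendrocyte precursors, 1 was lower (Gpr17, -1.71, lost without MPTP mouse 3 or Saline mouse 2 or 3, adjusted p up to 0.161), and without MPTP mouse 1, 6 were lower and 1 higher. The shares called were 6.67% and 46.7%. Over all genes they were 3.18% with all libraries, and 5.14% higher and 4.25% lower without MPTP mouse 1.

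Glucocorticoid-induced genes rose in number: 16 of 24 tested were higher and none lower (median 2.17; 18 higher, 1 lower and 2.08 without MPTP mouse 1; 11 and 12 higher without Saline mouse 1 and 2). Fkbp5, a co-chaperone that limits the glucocorticoid receptor, rose from 23.3, 21.6 and 20.0 CPM to 182, 128 and 128 CPM (log2 fold change 2.75, SE 0.28, adjusted p = 0.000628). Plin4, a lipid droplet protein, rose from 2.34, 2.19 and 3.21 CPM to 144, 161 and 178 CPM (5.96, SE 0.71). Hif3a rose from 1.87, 2.81 and 4.13 CPM to 37.8, 35.4 and 34.2 CPM (3.60). The groups did not overlap in these 3, which is close to fixed by their calls. The kinase Sgk1 (2.19), the zinc finger factor Zbtb16 (2.08), the cell cycle inhibitor Cdkn1a (4.56), Angptl4 (3.40), Map3k6 (4.67) and Tmem252 (3.21) also rose. The metallothioneins Mt1 and Mt2, which bind zinc, rose with 3.41 and 3.72, and again more in MPTP mouse 1 (3634 CPM of Mt1 against 712 and 612 CPM in mice 2 and 3, and 144 to 166 CPM with saline). The receptor Nr3c1 was called lower only without MPTP mouse 1 (-0.31, adjusted p = 0.0348). None of 19 circadian clock genes, which can follow glucocorticoids and the hour of collection, was called in either fit. Of these, 1 was called without MPTP mouse 2 and 1 without Saline mouse 3. At the 3.18% called over all genes, a list of 19 would hold few calls.

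**Figure D4:**
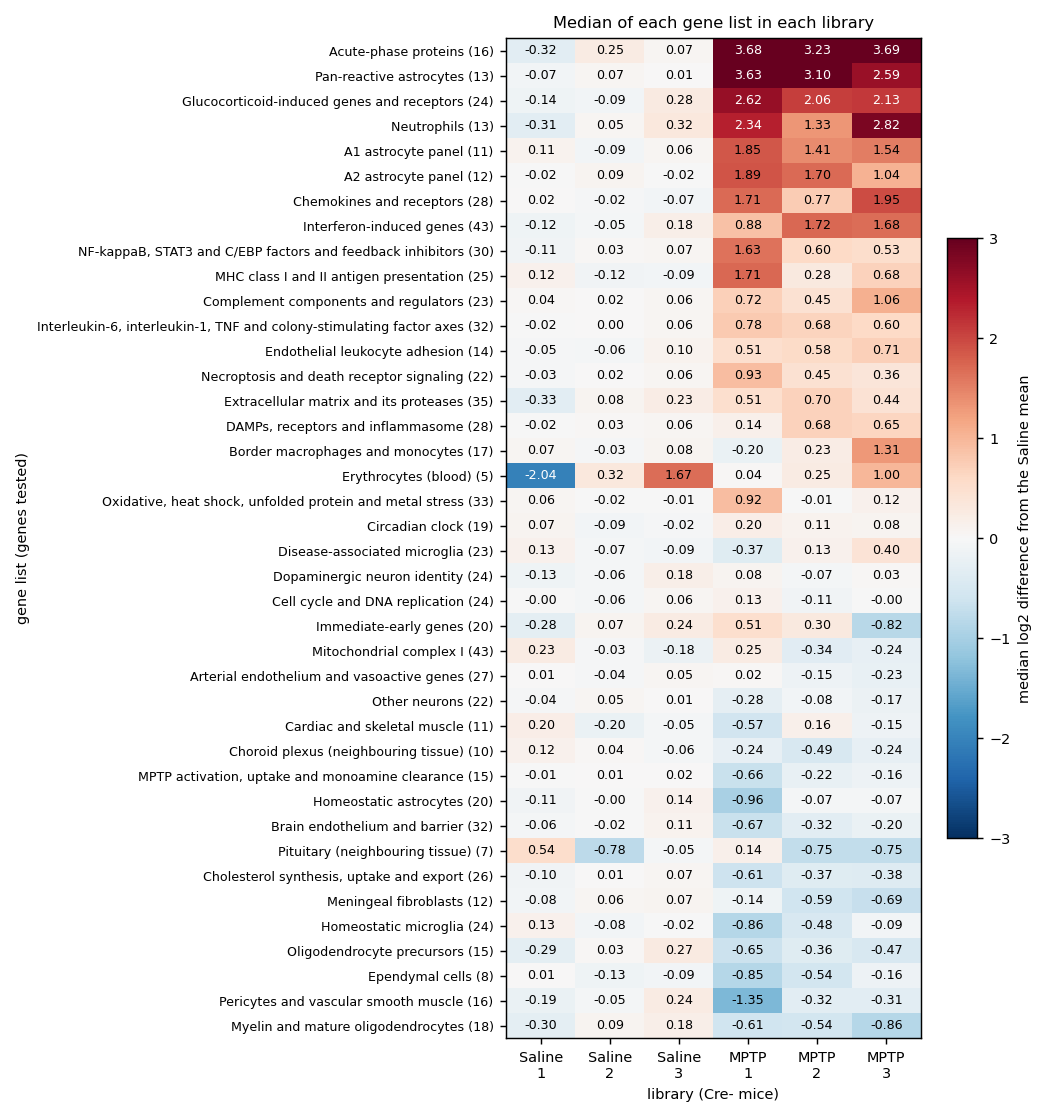
Median log2 difference from the Saline mean of the genes of each of the 40 lists (rows, genes tested in brackets) in each Cre- library (columns), coloured from blue (lower) to red (higher). Acute-phase, pan-reactive astrocyte, glucocorticoid and neutrophil genes have the highest average over the 3 MPTP mice and myelin genes the lowest, and MPTP mouse 1 lies away from mice 2 and 3 in, for example, antigen presentation (1.71 against 0.28 and 0.68) and pericyte genes (-1.35 against -0.32 and -0.31).

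In the other groups the share called ran from 34.3% of matrix genes to 3.85% of cholesterol genes, against 3.18% of all genes tested. Of 35 matrix genes and proteases, 11 were higher and 1 lower (14 and 1 without MPTP mouse 1; 4, 6 and 6 higher without Saline mouse 1, 2 and 3). Plaur, the urokinase receptor, rose from 0.794, 0.430 and 0.365 CPM to 27.4, 14.9 and 9.38 CPM (log2 fold change 5.01), Adamts9 rose with 2.55 and the basement membrane collagen Col4a1 with 1.59. Of 22 tested genes of necroptosis and death receptor signaling, 7 were higher and none lower (11 without MPTP mouse 1; 4, 3 and 3 without Saline mouse 1, 2 and 3). Ripk3, the gene floxed in these mice, had 4, 5 and 11 counts with saline and 6, 18 and 40 with MPTP, which is 0.159, 0.195 and 0.402 CPM against 0.650, 0.713 and 1.32 CPM. The groups did not overlap, but Ripk3 was called only without MPTP mouse 1 (1.99, adjusted p = 0.0318; 0.0856 with it). Mlkl, the membrane executor that RIPK3 phosphorylates, was called higher (1.88) and lost the call without MPTP mouse 3 and with any 1 Saline mouse left out (adjusted p up to 0.165). The inhibitor of apoptosis Birc3 (2.09), Tnfrsf1a and Zbp1 held.

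Of 28 tested genes for danger signals, their receptors and the inflammasome, 6 were higher and none lower (11 and 1 without MPTP mouse 1; 3 higher with any 1 Saline mouse left out). The pattern receptor Tlr2 rose from 2.34, 2.97 and 2.70 CPM to 9.43, 19.5 and 11.7 CPM (log2 fold change 2.35), with Cd14 and S100a8 as above. Of 33 oxidative, heat shock, unfolded protein and metal stress genes, 4 were higher and 1 lower (4 and 2 without MPTP mouse 1, 8 higher without MPTP mouse 2). Hmox1, heme oxygenase, rose from 5.0, 5.12 and 5.55 CPM to 10.5, 9.15 and 10.5 CPM (0.94), and Slc40a1, the iron exporter ferroportin, fell from 14.4, 13.7 and 13.3 CPM to 1.63, 4.48 and 3.96 CPM (-1.99). Of 26 genes of cholesterol synthesis and transport, 1 was lower (Dhcr7, -1.01, lost with any 1 Saline mouse left out, adjusted p up to 0.139), against 11 lower and 1 higher without MPTP mouse 1. The 11 were enzymes of synthesis and Insig1, with log2 fold changes of -0.34 to -0.95, and the higher gene was the lipid exporter Abca1 (0.84). Of 24 cell cycle genes 1 was higher and 1 lower, namely Cdkn1a and E2f8, the latter lost without MPTP mouse 2 or 3 or Saline mouse 2 or 3 (adjusted p up to 0.115), and 2 were higher and 2 lower without MPTP mouse 1. Of 20 immediate-early genes, Ier3 rose (2.32) and Arc fell (-0.97, lost without Saline mouse 2 or 3, adjusted p up to 0.0751), 2 were lower without MPTP mouse 1, and 3 and 4 were higher without MPTP mouse 2 and 3.

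Markers of tissues that border the dissection were checked for their part in these levels. None of 10 tested choroid plexus, 7 pituitary, 5 erythrocyte, 11 muscle and 8 ependymal genes was called. At the 3.18% called over all genes, lists this short would hold few calls. Without MPTP mouse 1 the ependymal factor Foxj1 was called lower (log2 fold change -0.52). The summed levels of the choroid plexus list were 30.3 to 34.2 CPM with saline and 28.3 to 36.4 CPM with MPTP, and those of the pituitary list 10.8 to 43.2 CPM and 11.7 to 95.9 CPM, the highest being MPTP mouse 1. Blood genes summed to 1.39 to 13.4 CPM with saline and 10.4 to 15.1 CPM with MPTP. Of 12 genes of meningeal fibroblasts, 3 were lower and 1 higher with or without MPTP mouse 1 (2 lower and none higher without MPTP mouse 3 and with any 1 Saline mouse left out), and the summed list was at 265 to 315 CPM with saline and 218 to 356 CPM with MPTP. Slc47a1 fell with -2.40 and Igf2 with -1.40. The part of a varying dissection in the other results was not tested.

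Whether the response differed from that of mice lacking astrocytic Ripk3 was tested with the interaction of genotype and treatment over all 13 libraries. Only 2 of 19360 genes passed, 0.0103% of those tested, against 223 by DESeq2. At an unadjusted p under 0.05 there were 1116, and a share of 0.05 of all genes would be expected there if none differed. P2ry12 fell by 2.79 on the log2 scale in Cre- mice, whereas in Cre+ mice it was at 23.7, 18.1 and 18.9 CPM with saline and 13.4, 15.3, 12.7 and 14.4 CPM with MPTP (log2 fold change -0.53). The difference of the responses was 2.26 (SE 0.258, adjusted p = 0.0240). Edn3 was at 4.85, 4.60 and 5.41 CPM with saline and 5.06, 3.69, 4.30 and 4.27 CPM with MPTP in Cre+ mice (-0.19), against the fall of 2.62 in Cre- mice, and the difference was 2.43 (SE 0.310, adjusted p = 0.0381). In both genes the 3 Cre- MPTP mice were below all 10 other libraries. Both calls were lost without MPTP mouse 3 (adjusted p = 0.0648 for P2ry12 and 0.138 for Edn3), Saline mouse 1 (0.0892 for both) or Saline mouse 2 (0.0830 for both), and that of Edn3 without Saline mouse 3 (0.0589). Without MPTP mouse 1, 199 genes passed, which is 1.03% of 19311. With all libraries and edgeR, a difference between the genotypes was not shown for the other genes named here. Which named genes are among the 199 without MPTP mouse 1, or the 223 by DESeq2, is not listed here. The numbers called in each genotype are not compared.

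**Figure D5:**
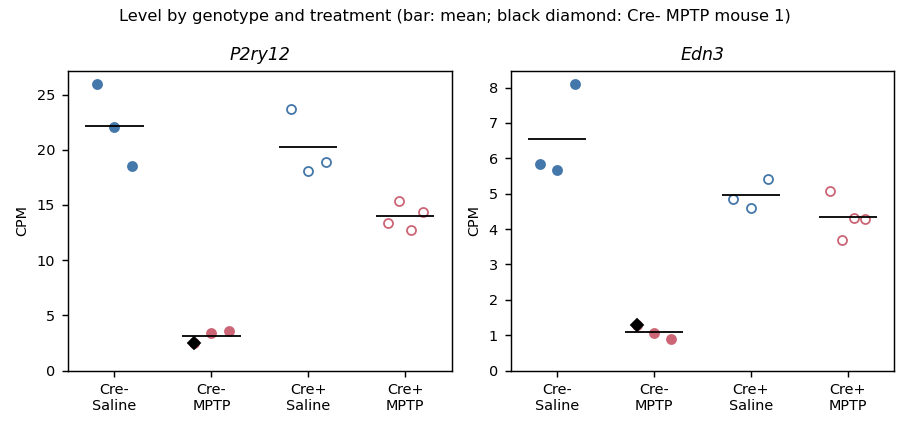
CPM of P2ry12 (left) and Edn3 (right) in each library of the 4 groups, with bars at the group means, filled points for Cre- and open points for Cre+ mice, and MPTP mouse 1 of the Cre- genotype as a black diamond. In both genes the Cre- MPTP mice, at 2.49 to 3.57 CPM and 0.891 to 1.30 CPM, are below every other library.

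Some of these counts cannot be assigned to a gene beyond doubt. The strand setting used for counting is not given in the sources used here, so reads of genes that overlap a gene on the other strand may be shared: P2ry12 and P2ry13 lie within Med12l, which was at 26.2, 46.4 and 48.9 CPM with saline and 28.0, 60.0 and 54.3 CPM with MPTP, and Cp overlaps Hps3, Irf7 Phrf1, Timp1 Syn1, Gpr34 Cask, Cnp Dnajc7, Tap1 Psmb9 and Plin4 Hdgfl2. Near-identical copies make the shares of C4b and C4a, the serum amyloid, Serpina3, H2-Q, Ifitm and guanylate-binding families uncertain.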

How the data were processed

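RNA-Seq of midbrain was analysed in 6 Cre- mice, with the other 7 libraries of the series in the same fit. Per the labels and the study's methods, the authors trimmed reads with Trimmomatic 0.36, aligned them to GRCm38 with STAR 2.5.2b and took the unique hits of each gene with featureCounts of Subread 1.5.2. The authors deposited raw counts for 49315 genes, of which 49056 took a symbol and position from GENCODE M21. The kit was stranded, and the strand setting of the counting is not given in the sources used here.

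edgeR 4.0.16 in R 4.3.3 was fitted to the counts of all 13 libraries with 1 term per group, TMM scaling and the 19360 genes that reached 10 counts in 3 or more libraries. The quasi-likelihood test was adjusted by the Benjamini-Hochberg method over these genes, with calls below 0.05. Standard errors were taken as the absolute log2 fold change over the square root of F. A median total of 24655963 counts with MPTP and 25324907 with saline makes 1 count about 0.04 CPM, and 3 counts per library were taken as the floor, for counting error only. Checked before averaging, no 2 libraries of a group were alike within sampling noise. The code was tested on simulated data.

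Alternatives were DESeq2 1.42.0, limma 3.58.1 with voom and quality weights, other scaling and filters, each library left out, and the mouse number as a block. Removal of each library's trend on GC content was chosen after seeing the data. The 40 gene lists (835 genes) and the group compared were chosen with earlier results of these data known, so that no list is independent evidence. Named genes were the 12 with the smallest adjusted p in each direction among called genes whose groups did not overlap, the first 3 members of each list and the 4 with the smallest p, Ripk3, and other members where a list is described. Promoters came from RefSeq (GRCm38.p6).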

Additional observations from a re-analysis of the deposited data

Results flagged for a closer look

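Edn3 and P2ry12 passed a test of whether the response to MPTP differed between mice with and without astrocytic Ripk3. The log2 response of Edn3 in Cre+ mice minus that in Cre- mice was 2.43 (SE 0.31, adjusted p = 0.0381), and that of P2ry12 was 2.26 (SE 0.258, adjusted p = 0.024). In each gene all 3 Cre- MPTP mice, mouse 1 included, were below the 4 Cre+ MPTP mice. Neither passed with the mouse number as a block (adjusted p = 0.271 for both), and Edn3 did not pass with DESeq2 size factors (0.0518). Both calls were also lost without MPTP mouse 3, Saline mouse 1 or Saline mouse 2, and that of Edn3 without Saline mouse 3. P2ry12 may also share reads with Med12l, in which it lies. With 3 mice in each Cre- group no test for a single outlying mouse was made.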

How the results depend on the processing

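None of the 616 called genes changed direction in an alternative that tested it. Up to 20 of them were not tested in a given alternative, the most in both fits of the 6 libraries alone. Calls were lost: of the 198 named genes that were called, 57 were called in every alternative and 81 lost the call in at least 1 fit with a library left out. With 1 library left out, genes called higher ranged from 213 to 992, genes called lower from 98 to 820 and genes of the interaction from 0 to 199, the highest each time without MPTP mouse 1. Without MPTP mouse 1 none of the 198 lost the call, and without Saline mouse 1, 2 or 3, 68, 72 and 51 did.

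DESeq2 over the 13 libraries called 757 higher, 380 lower and 223 in the interaction, and limma voom with quality weights 1373, 1251 and 689. edgeR on the 6 libraries alone, with fewer animals behind the spread, called 105 and 5, and 125 of the 198 lost the call. With the GC trend removed, 594 were higher, 303 lower and 36 in the interaction, and 2 of the 198 lost the call. The interaction gave 1 gene with DESeq2 size factors and 10 without a filter on low counts. The cause of these shifts was not tested.

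The labels do not say that the mouse numbers pair the samples. The deviations of same-numbered MPTP and Saline mice correlated at 0.155, 0.184 and 0.029. Pairs with different numbers ran from -0.182 to 0.141, the highest being MPTP mouse 3 with Saline mouse 2. A pairing was neither shown nor excluded by these values. With the number as a replicate block 297 genes were higher, 131 lower and 0 passed the interaction. Depth limits genes at few counts, among them Ripk3, Il6, Tnf and most neutrophil genes, and MPTP mouse 1, with 11489150 counts, limits them most.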
